A study of Mus musculus with 12 samples.

Results

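En2 and Cnpy1 are neighbouring genes on mouse chromosome 5, and H3K27me3 over both was read from every oligonucleotide probe of the array that lies in chr5:28480001-28604000 (mm9). This region of 124000 bp held 1323 of the 48316 probes outside control spots, at a median step of 60 bp. En2 (ENSMUSG00000039095.7) occupies chr5:28492236-28500152 on the plus strand. Cnpy1 (ENSMUSG00000044681.11) occupies chr5:28527359-28572332 on the minus strand, so that the genes point towards each other across 27206 bp, and the annotation holds no other gene in the region. The region was chosen by its NPC and ESC log2 ratios on these same arrays (high at En2 and inside Cnpy1 in NPCs), so levels and the differences between NPCs and ESCs are given as descriptions without a test.

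En2 encodes a homeodomain transcription factor of the engrailed family, best known for its role at the midbrain-hindbrain boundary and in the developing cerebellum. Cnpy1 encodes a canopy family protein of the endoplasmic reticulum that is linked to FGF signalling at the same boundary. H3K27me3 is laid down by polycomb repressive complex 2, which in ESCs marks the CpG-rich promoters of many developmental genes, homeobox genes among them.

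The cells were 46c mouse ESCs, a line with a GFP reporter in Sox1, and NPCs differentiated from them in N2B27 medium. The 5 ESC populations had been transfected with the eGFP control or with a TALE DNA-binding domain fused to the Vp64 activator, directed at the Shh promoter (tShh-Vp64), at the Shh brain enhancers SBE6 (tSBE6-Vp64) or SBE2 (tSBE2-Vp64), or at both enhancers (tSBE(6+2)-Vp64). Transfection was transient, and in the study's other assays transfected cells were isolated by sorting on eGFP. Each of the 6 conditions had 2 arrays (R1 and R2), 12 in all, which were averaged to 1 sample per condition because the labels of eGFP, tShh-Vp64 and tSBE2-Vp64 give both arrays the same biological replicate. The labels of the other conditions do not say whether R1 and R2 share a culture. Neither the day of NPC differentiation nor whether NPCs had been transfected is given in the labels. Values are log2 ratios of the Cy5 over the Cy3 signal, centred on the median of each array. This is the direction that the deposited ChIP/input ratios follow, with correlations across probes of 0.898 to 0.944, but the labels give Cy3 to ChIP DNA, and by the dye labels every sign below is the opposite. The words high, low, domain, block and rank below all follow the deposited direction.

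Arrays R1 and R2 of a condition correlated across probes at 0.791 to 0.882. NPCs and tSBE(6+2)-Vp64 ESCs shared slide 2, where the SD of the log2 ratio over probes was 1.19 to 1.41, against 0.893 to 1.08 for the other conditions on slide 1. Over all tiles the slope of NPCs on the ESC mean was 1.22, so NPCs had a wider range of ratios along with the differences given below. For some windows the difference after division of NPC values by this slope is given. Beyond that, the part of the range in the differences was not tested. Promoters of listed marker genes served to check the labels. Pou5f1, Nanog, Fgf4 and Klf4, 4 of the 5 ESC markers listed, had ESC means of -0.67 to -0.06 and were higher on both NPC arrays by 1.52 to 2.43. Of the NPC markers, Nes and Sox9 were lower by 0.76 and 0.29 in NPCs, whereas Pax6 and Six3 were higher by 1.22 and 1.33. The paper reports that Six3 and Shh are induced when ESCs become NPCs. The Shh promoter was also higher in NPCs, by 1.28. Zfp42 and Sox1 had no promoter window with enough probes. Of the genes listed as expressed in both cell types, Actb and Gapdh had ESC means of -0.55 and -0.33 and differed by 0.02 and 0.09. Sox2, also on that list, was 0.58 higher in NPCs, with both NPC arrays above all ESC arrays. That order held at 57.7% of promoter windows on the array.

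Sequences of 300 bases are shown for 3 of the places around which the results turn, read from the mm9 genome on the strand of the nearer gene. CG dinucleotides, which read the same on both strands, are in capitals. The first is the centre of the 500 bp bin with the highest ESC mean, intergenic, at chr5:28487601-28487900 (plus strand), ending 4336 bp before the En2 start. The second, chr5:28537101-28537400 (minus strand), is intronic in the full-length Cnpy1 transcript and is the centre of the bin with the highest NPC value in Cnpy1, 198 bp upstream of the first of its internal starts. The third, chr5:28572333-28572632 (minus strand), ends at the base before the start of full-length Cnpy1.
En2 upstream peak: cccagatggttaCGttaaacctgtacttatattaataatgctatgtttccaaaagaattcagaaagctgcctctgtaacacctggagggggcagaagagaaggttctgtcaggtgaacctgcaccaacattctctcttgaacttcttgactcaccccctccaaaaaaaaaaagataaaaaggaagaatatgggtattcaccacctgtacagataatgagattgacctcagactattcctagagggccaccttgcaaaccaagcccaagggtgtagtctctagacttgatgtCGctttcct
Cnpy1 internal peak: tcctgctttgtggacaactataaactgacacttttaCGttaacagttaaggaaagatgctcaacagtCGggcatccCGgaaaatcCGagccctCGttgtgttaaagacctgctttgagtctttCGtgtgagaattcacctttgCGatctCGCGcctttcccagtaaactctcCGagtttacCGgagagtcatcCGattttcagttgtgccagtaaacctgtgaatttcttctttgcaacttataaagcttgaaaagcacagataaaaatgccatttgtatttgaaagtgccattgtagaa
Cnpy1 promoter: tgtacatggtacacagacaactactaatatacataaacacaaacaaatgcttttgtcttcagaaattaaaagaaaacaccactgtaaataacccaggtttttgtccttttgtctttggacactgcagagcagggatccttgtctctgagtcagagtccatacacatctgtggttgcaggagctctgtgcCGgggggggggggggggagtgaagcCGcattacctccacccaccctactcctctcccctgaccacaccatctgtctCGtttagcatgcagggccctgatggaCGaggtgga
The Cnpy1 internal peak held 12 CG dinucleotides, a number that 44.4% of the same stretch before 22374 protein-coding starts reached. The Cnpy1 promoter held 4 (reached by 72.1% of promoters) and the En2 upstream peak 2 (85.8%). The median over promoters was 9, and 93.9% held at least 1. So the 300 bases at the strongest ESC bin of the region held fewer CG dinucleotides than the median promoter stretch. The 2 kb tile around them held 13.5 per kb, against a median of 7.5 over the tiles of the region and 8.5 on the array.

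In 2 kb tiles (60 with at least 3 probes, of 2289 on the array), H3K27me3 formed a domain around En2 in every condition and a further domain in the 3′ part of Cnpy1 that was seen in NPCs. The En2 domain peaked before the gene rather than at its start. The tile chr5:28486001-28488000, centred 5.24 kb upstream of the En2 start, was the highest of the region in ESCs and in NPCs, and ranked 2 among the 2289 tiles of the array in both. With the sign turned, as the dye labels have it, it would be the lowest of the region and rank 2 from the lowest on the array. Its values were 3.72 and 3.36 on the eGFP arrays, 2.94 and 2.82 on tShh-Vp64, 2.77 and 2.75 on tSBE6-Vp64, 2.88 and 2.74 on tSBE2-Vp64, 3.34 and 3.54 on tSBE(6+2)-Vp64, and 4.77 and 4.80 on NPC. The ESC mean was 3.09 ± 0.37 (SD over 5 populations). Both NPC arrays lay above all 10 ESC arrays, as they did in 29.9% of the tiles on the array. The highest ESC populations were eGFP and tSBE(6+2)-Vp64.

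**Figure D1:**
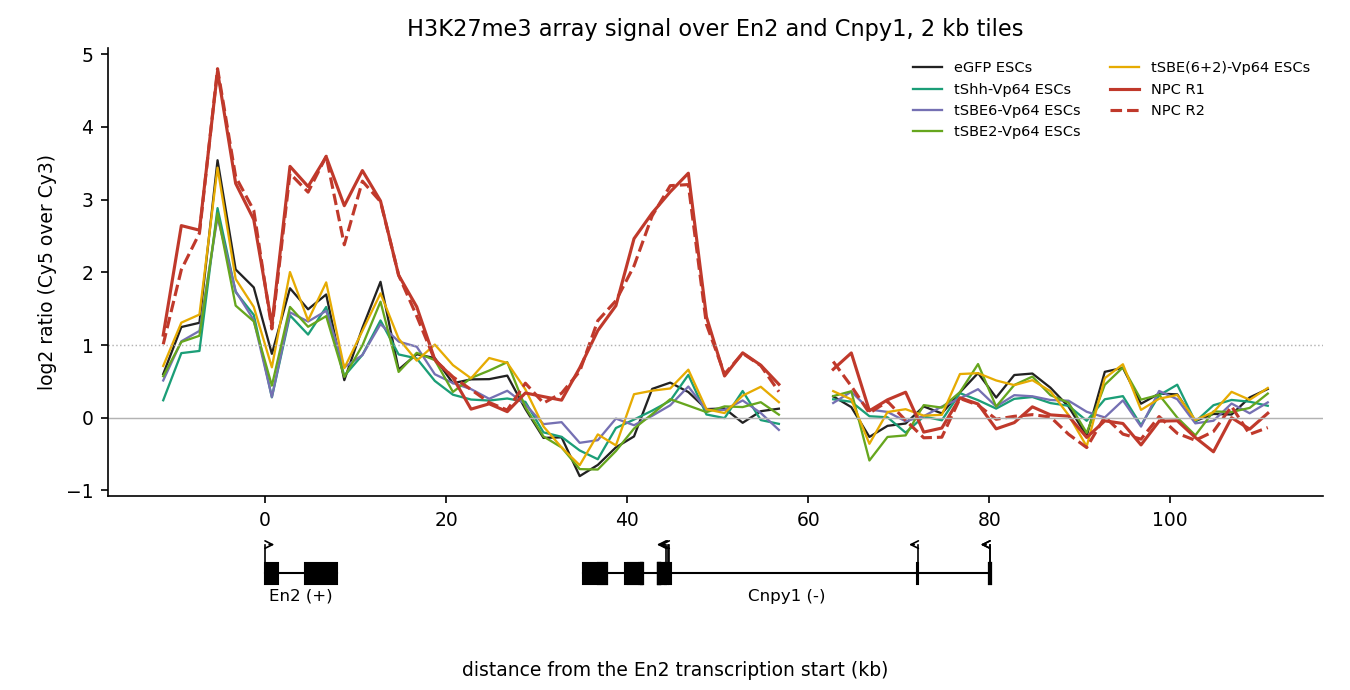
Log2 ratio (Cy5 over Cy3) in 2 kb tiles against distance from the En2 start, for each ESC population (mean of R1 and R2) and each NPC array, with exons as boxes, transcription starts as arrows and a dotted line at 1. All conditions peak upstream of En2 and dip at its start, and the NPC arrays alone rise to 3.36 and 3.21 over Cnpy1. The break in the lines is a gap of 6132 bp between probes.

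At the En2 start the signal dropped. The tile chr5:28492001-28494000, which holds the first exon, read 0.97 and 0.79 on eGFP, 0.32 and 0.24 on tShh-Vp64, 0.35 and 0.22 on tSBE6-Vp64, 0.42 and 0.46 on tSBE2-Vp64, 0.74 and 0.65 on tSBE(6+2)-Vp64, and 1.28 and 1.22 on NPC. This tile was also the one with most CG dinucleotides, 110.5 per kb against a median of 7.5 over the region, and no tile of the array held more. In 500 bp bins the signal had fallen from the upstream peak before the start, to an ESC mean of 0.93 at chr5:28489001-28489500 (5 probes). A further drop began at the start and ran through the first exon. The last whole bin before the start (7 probes, 22 CG dinucleotides) had an ESC mean of 1.67 and an NPC value of 3.05. The bin centred 0.52 kb after it (4 probes, 73 CG dinucleotides, 74.2% G or C) had -0.03 and 0.59. The drop was in the Cy5 channel, whose log2 signal relative to the array median fell from 1.24 to -0.34 in ESCs between those bins, while the Cy3 channel went from -0.27 to -0.15.

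Beyond the dip the signal was high over most of En2. The bin chr5:28497501-28498000 (4 probes) was low, with an ESC mean of 0.04 and NPC values of 1.01 and 1.09. Over the gene body, chr5:28493237-28500152 with 85 probes, eGFP had 1.81 and 1.46, tShh-Vp64 1.39 and 1.21, tSBE6-Vp64 1.31 and 1.37, tSBE2-Vp64 1.31 and 1.37, tSBE(6+2)-Vp64 1.70 and 1.70, and NPC 3.29 and 3.22. The NPC level was 1.79 above the ESC mean of 1.46 ± 0.19. Every ESC array lay below both NPC arrays, which was so in 29.9% of the 2 kb tiles on the array. Within the body the highest tiles were chr5:28494001-28496000, with 1.63 in ESCs and 3.41 in NPCs, and chr5:28498001-28500000, with 1.59 and 3.59. With loess and scale normalization, which gives arrays the same spread, the difference was 1.01, in the deposited ratios 1.16, and with NPC values divided by their slope on the ESC mean 1.20.

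The En2 promoter window (within 1 kb of the start, chr5:28491236-28493236, 21 probes) held less signal than the body. It read 1.07 and 0.81 on eGFP, 0.62 and 0.52 on tShh-Vp64, 0.67 and 0.43 on tSBE6-Vp64, 0.63 and 0.66 on tSBE2-Vp64, 0.90 and 0.80 on tSBE(6+2)-Vp64, and 1.49 and 1.52 on NPC. The NPC value exceeded the ESC mean of 0.71 ± 0.17 by 0.79, and by 0.44 with loess and scale. NPC arrays lay above all ESC arrays at 41 of 71 promoter windows of the array, 57.7%, so the En2 promoter was not set apart by this. Promoter minus body was -0.75 ± 0.06 over the ESC populations and -1.75 in NPCs. It was negative on all 12 arrays, from -0.94 to -0.63 on the ESC arrays. Over probes well above background in both channels and not saturated on all arrays (15 in the promoter), it was -0.41 and -1.32, and with a promoter window of 2500 bp on either side of the start -0.42 and -1.22.

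**Figure D2:**
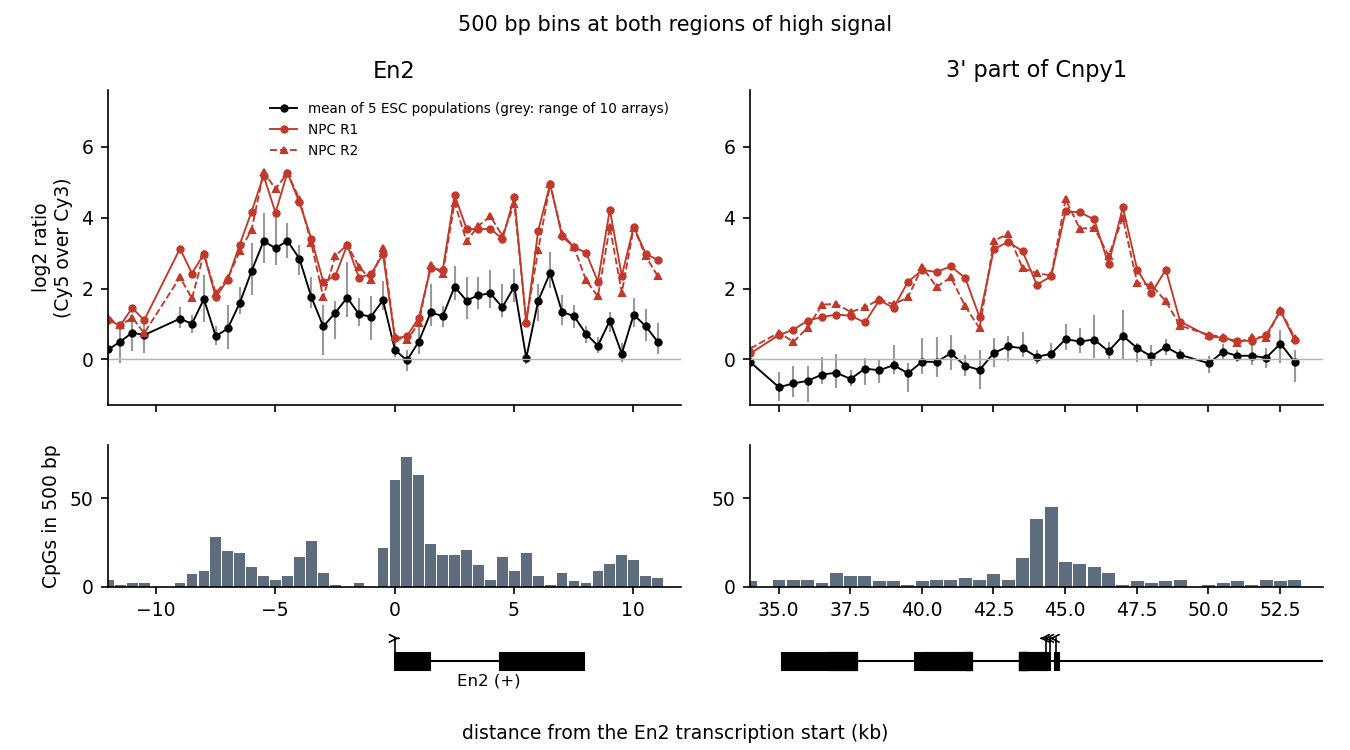
Log2 ratio (Cy5 over Cy3) in 500 bp bins with at least 3 probes (top) and the number of CG dinucleotides per bin (middle) against distance from the En2 start, around En2 (left) and the 3′ part of Cnpy1 (right). Black points are the mean of the 5 ESC populations with the range of the 10 ESC arrays in grey, red points the NPC arrays. At both genes the bins with most CG dinucleotides lie in a local dip of the NPC signal.

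The En2 domain ended between the genes. A run of tiles at 1 or more on both arrays, with a gap of 1 tile allowed, is called a block here. Of the 60 tiles, 10 had an ESC mean of 1 or more (10.9% on the array) and 22 such an NPC value (18.6%). In NPCs the block over En2 spanned 30 kb, chr5:28480001-28510000, and began at the edge of the region. In eGFP ESCs it spanned 24 kb (chr5:28482001-28506000) and in tSBE(6+2)-Vp64 ESCs 26 kb (chr5:28482001-28508000). In tSBE6-Vp64 and tSBE2-Vp64 ESCs it spanned 18 kb each, with a separate stretch of 4 kb and 2 kb beyond the gene, and in tShh-Vp64 ESCs 14 kb with a stretch of 2 kb. The 3′ flank of En2 differed most between NPCs and ESCs within this domain. The intergenic tile chr5:28502001-28504000 rose above an ESC range of 0.79 to 1.43 (median 1.00) to 3.40 and 3.25 in NPCs, 2.30 over the ESC mean. Further on the order turned, and at chr5:28518001-28520000 ESC arrays ranged from 0.21 to 0.85 (median 0.53) against 0.08 and 0.11 in NPCs.

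Of the 14 tiles between the genes, NPC arrays lay above all ESC arrays in 8 and below all in 1, against 29.9% and 18.8% of the tiles on the array. The tiles around the Cnpy1 end were among the lowest of the region in ESCs. The tile chr5:28526001-28528000, which holds the end of the last Cnpy1 exon, had the lowest ESC mean of the region, -0.59 ± 0.19, with arrays from -0.93 to -0.33. In NPCs it read 0.69 and 0.64. The next lowest counted separately, chr5:28530001-28532000 and chr5:28558001-28560000, both in Cnpy1, had ESC means of -0.28 and -0.22.

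Cnpy1 carried little signal in ESCs and a domain of 14 kb in NPCs, the block chr5:28528001-28542000, which no ESC population had. This block covers the 3′ exons and the internal starts at 28536903, 28536708 and 28536562, from which the annotation has 3 shorter transcripts begin, 35429 to 35770 bp downstream of the full-length start. Over the internal promoters, chr5:28535562-28537903 with 27 probes, eGFP had 0.60 and 0.32, tShh-Vp64 0.21 and 0.17, tSBE6-Vp64 0.16 and 0.15, tSBE2-Vp64 0.19 and 0.23, tSBE(6+2)-Vp64 0.25 and 0.44, and NPC 3.16 and 3.07. NPCs stood 2.84 above the ESC mean of 0.27 ± 0.12, and 2.14 with loess and scale, 1.90 in the deposited ratios and 2.28 after division by the slope. Against tSBE(6+2)-Vp64 on the same slide the difference was 2.77.

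In the region only tiles of this domain and of the 3′ end and flank of En2 differed by 2 or more, 7 of 60 tiles in the region against 63 of 2289 on the array, 2.75%. The highest was chr5:28538001-28540000, intronic in Cnpy1, with an ESC range of 0.13 to 0.82 (median 0.43) and 3.36 and 3.21 in NPCs, a difference of 2.85 that ranked 11 on the array. The adjoining tile chr5:28536001-28538000 had 0.17 to 0.59 (median 0.28) in ESCs and 3.11 and 3.19 in NPCs. The next one counted separately, chr5:28534001-28536000, which holds a Cnpy1 exon, had -0.03 to 0.49 (median 0.10) and 2.81 and 2.78.

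The 500 bp bins resolved this domain around the internal starts. The bin chr5:28537001-28537500, around the second sequence above, had an ESC mean of 0.57 and NPC values of 4.18 and 4.51. The adjoining bin with most CG dinucleotides of Cnpy1 (45, centred 44.5 kb from the En2 start) had an ESC mean of 0.16 and NPC values of 2.35 and 2.37. At the first of these bins the Cy3 signal was below the array median, at -1.76 in ESCs and -2.15 in NPCs, and the Cy5 signal was at -1.35 in ESCs and 1.96 in NPCs. Its sequence was 38.6% G or C, against 60.6% in the CG-rich bin. Over the internal promoters the Cy5 channel was 2.37 higher in NPCs and the Cy3 channel 0.41 lower. Over the En2 body and promoter the Cy3 channel moved by -0.03 and 0.02 and the Cy5 channel by 1.69 and 0.74, so that there the ratio followed the Cy5 channel.

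The mark fell off from the internal starts towards the full-length start. In the 3′ part of Cnpy1, from the gene's end to the first internal start (120 probes), ESC arrays ranged from -0.34 to 0.05 (median -0.20) and NPC arrays read 1.93 and 1.89. In the 5′ part, from there to the promoter window (304 probes), ESC arrays ranged from 0.14 to 0.27 (median 0.17) and NPC arrays read 0.80 and 0.72. The NPC arrays were thus above all ESC arrays in both parts, by 2.08 and 0.57 over the ESC mean. Of the 2 kb tiles on the array, 29.9% had this order. Over the whole body window (424 probes) the difference was 1.00, and 0.57 in the deposited ratios, 0.67 over probes well above background and 0.66 with the median in place of the mean over probes.

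**Figure D3:**
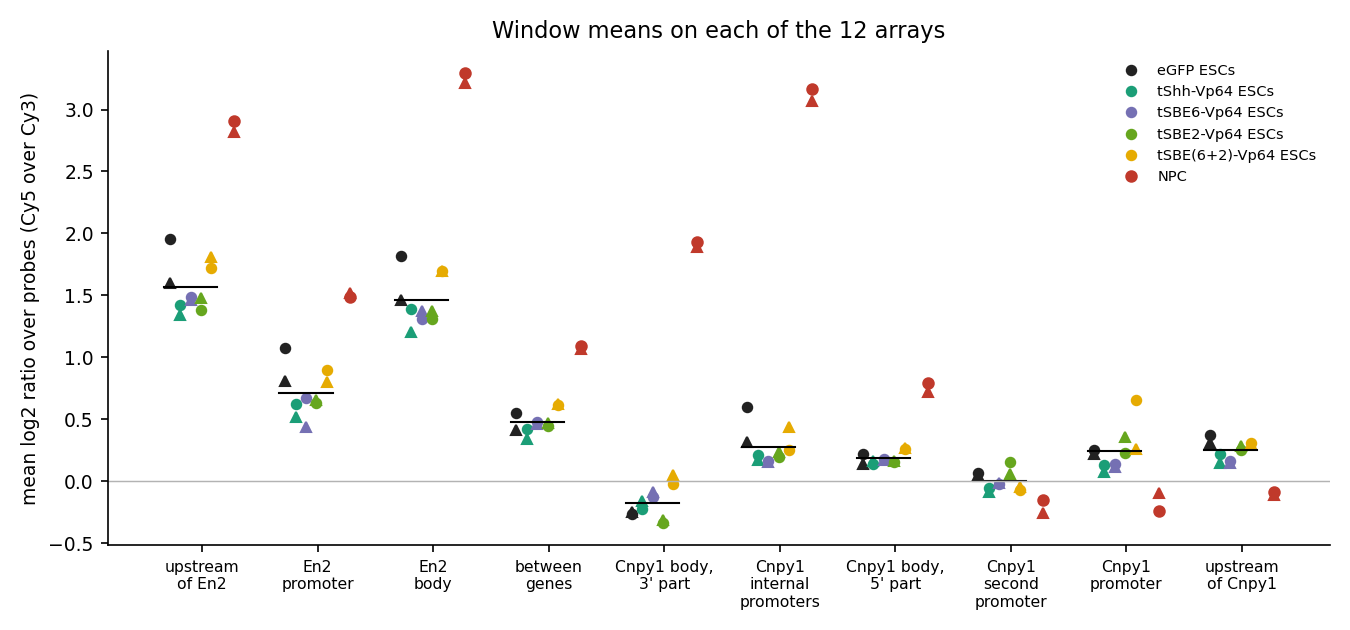
Mean log2 ratio (Cy5 over Cy3) over the probes of each window on every array, with circles for R1 and triangles for R2 and a line at the mean of the 5 ESC populations. NPC arrays sit above all ESC arrays at En2 and in both parts of the Cnpy1 body, and below them at the second and the full-length Cnpy1 promoters and upstream of Cnpy1.

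At the full-length Cnpy1 promoter the order was the opposite. The window chr5:28571332-28573332 (25 probes) read 0.25 and 0.22 on eGFP, 0.13 and 0.08 on tShh-Vp64, 0.14 and 0.11 on tSBE6-Vp64, 0.23 and 0.36 on tSBE2-Vp64, 0.66 and 0.26 on tSBE(6+2)-Vp64, and -0.24 and -0.10 on NPC. NPCs were 0.41 below the ESC mean of 0.24 ± 0.14, and R1 and R2 of tSBE(6+2)-Vp64 differed by about as much. The 8 of 71 promoter windows where both NPC arrays lay below all ESC arrays made up 11.3%. The second promoter, chr5:28563413-28565413, where transcript Cnpy1-002 starts 7919 bp inside the gene, ranged from -0.08 to 0.15 on the ESC arrays (median -0.02) and read -0.16 and -0.26 on the NPC arrays. Promoter minus body in Cnpy1 was 0.16 ± 0.11 over the ESC populations and -1.25 in NPCs, positive on all ESC arrays (0.01 to 0.48) and negative on both NPC arrays. The ESC value was 0.0026 over probes well above background and not saturated, and 0.35 with a promoter window of 2500 bp on either side.

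Upstream of Cnpy1 (chr5:28573333-28604000, 332 probes) ESC arrays ranged from 0.15 to 0.37 (median 0.27) and NPC arrays read -0.09 and -0.11. All 16 adjoining tiles of this stretch had a lower value in NPCs than the ESC mean, by 0.11 to 0.68 in size. Over all tiles of the array the median difference was 0.04 and the lower quartile -0.22. In 11 of the 16 both NPC arrays lay below all ESC arrays, against 18.8% of tiles on the array. The tile with the most negative difference of the region, chr5:28586001-28588000, had ESC values of 0.22 to 0.81 (median 0.64) and NPC values of -0.08 and -0.22. At chr5:28574001-28576000, just beyond the promoter window, the difference was -0.44. The lowest NPC tiles of the region, at 28582001, 28588001 and 28596001, were also here, with NPC means of -0.34, -0.33 and -0.33. In the whole region NPC arrays lay above all ESC arrays in 32 of 60 tiles (29.9% of tiles on the array) and below all in 15 (18.8%).

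**Figure D4:**
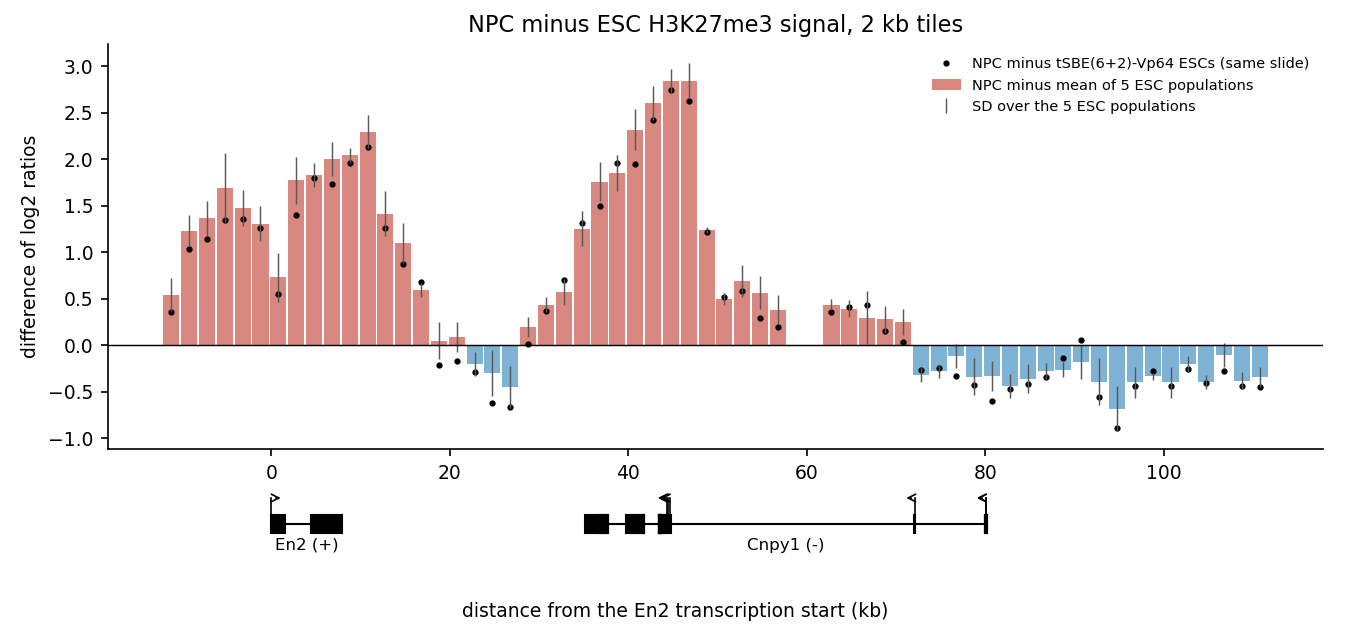
NPC minus the mean of the 5 ESC populations per 2 kb tile against distance from the En2 start, with the SD over those populations as lines and NPC minus tSBE(6+2)-Vp64 ESCs of the same slide as dots. Differences are positive over En2, its flanks and the 3′ part of Cnpy1, with the highest at 2.85, and negative in part of the sequence between the genes and from the second Cnpy1 promoter on, with the lowest at -0.68.

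A tile's CG content was positively correlated with its level, to a degree that depended on the measure. Across the 60 tiles, which share arrays and neighbours, Pearson's r between CG dinucleotides per kb and level was 0.22 in ESCs and 0.35 in NPCs, and 0.32 and 0.36 across all 2289 tiles of the array. Pearson's r of CG content with the difference between NPCs and ESCs was 0.33 in the region and 0.23 on the array. By ranks (Spearman) the correlations in the region were 0.34 in ESCs, 0.44 in NPCs and 0.45 for the difference. On the array they were 0.25, 0.26 and 0.15.

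Other promoters of the array were ranked by the root mean square difference from En2 and Cnpy1 over the 12 arrays, among 69 windows with at least 10 probes. The promoters most like that of En2 were Fgf3 (0.16), Hoxd1 (0.17) and Fgf15 (0.18), the first and last encoding FGF ligands and Hoxd1 a homeodomain factor. Fgf3 had an ESC mean of 0.65 and NPC values of 1.53 and 1.38. The promoters nearest to the Cnpy1 tile with the highest NPC value were farther away, Bmp4 (0.45), Dbx2 (0.54) and Gm15217 (0.56). Bmp4, which encodes a BMP ligand, went from an ESC mean of 0.17 to 2.56 and 2.40 in NPCs. At the Shh promoter the ESC mean was 1.43 ± 0.20 and the NPC value 2.70, so the En2 promoter was below that of Shh in both cell types.

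Of 18 genes listed for the midbrain-hindbrain boundary, En2 and Cnpy1 were the only members with probes at their promoters, so the mark at their partners (En1, Pax2, Fgf8, Wnt1 and others) was not analysed here. All 20 of the listed developmental regulators had a promoter window. NPC arrays lay above all ESC arrays in 13 of them and below in 3, against 57.7% and 11.3% of all 71 promoters, with a median difference of 1.02 against 0.58. The 20 are themselves among the 71. The Hoxd genes and Evx2 on the list are neighbours in the same cluster on chromosome 2, so they do not count as independent members. The En2 promoter ranked 27 of 71 by ESC mean and 31 by difference, and the Cnpy1 promoter 40 and 66.

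Whether the TALE-Vp64 constructs, which are directed at sites in the Shh domain, changed the mark at En2 and Cnpy1 was tested with limma over all 2289 tiles, with the 4 constructs against eGFP. No tile passed an adjusted p of 0.05 in either direction, on the array (0.0% of tiles) or in the region, where the lowest Benjamini-Hochberg adjusted p was 0.998. At an unadjusted p of 0.05, 3 tiles of the region were lower with the constructs and 0 higher, against 1.31% and 0.349% of all tiles. These 3 tiles were the peak upstream of En2, chr5:28490001-28492000 and the tile of the En2 start. With any 1 of tShh-Vp64, tSBE6-Vp64 or tSBE2-Vp64 left out, 0 tiles of the region reached an unadjusted p of 0.05. At the peak the difference was -0.57 (95% interval -1.09 to -0.05), at the En2 start -0.45 (-0.87 to -0.04). The eGFP arrays did not overlap those of tShh-Vp64, tSBE6-Vp64 and tSBE2-Vp64 in either tile. They lay above those of tSBE(6+2)-Vp64 at the En2 start and overlapped them at the peak. Both tiles were picked by this same comparison, so the order of their arrays describes them and adds no support. Within slide 1, without tSBE(6+2)-Vp64, 7 of 60 tiles of the region had an unadjusted p below 0.05, as had 163 of 2289 tiles on the array (7.12%), and 0 passed adjustment.

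**Figure D5:**
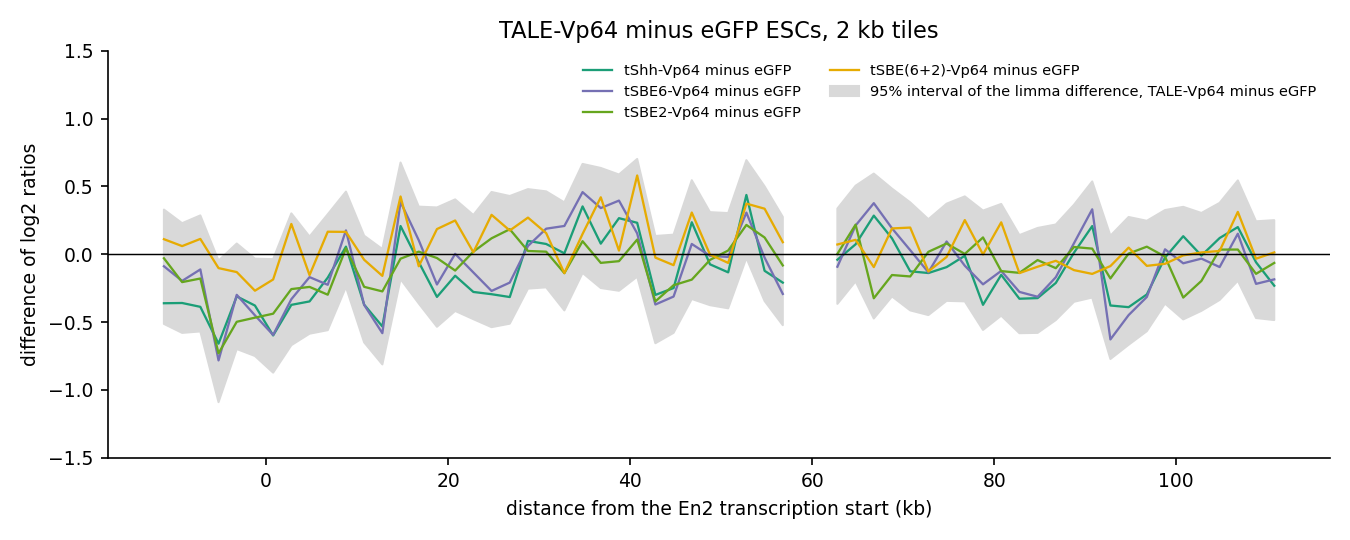
Difference of log2 ratios from eGFP ESCs for each TALE-Vp64 population (lines, mean of R1 and R2) in 2 kb tiles against distance from the En2 start, with the 95% interval of the limma difference over the 4 constructs in grey. The tSBE(6+2)-Vp64 line stays nearer to 0 at the peak upstream of En2, where the other constructs lie 0.66 to 0.78 below eGFP.

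The ranges of the ratios differed along with these values. Over all tiles the slope on eGFP was 0.82 for tShh-Vp64, 0.87 for tSBE6-Vp64, 0.89 for tSBE2-Vp64 and 1.08 for tSBE(6+2)-Vp64. After each construct was divided by its slope, 2 tiles of the region had an unadjusted p below 0.05, 1 of them lower. At the Cnpy1 tiles of the NPC domain the intervals included 0, with -0.22 (-0.58 to 0.14) at chr5:28536001-28538000 and 0.11 (-0.33 to 0.55) at chr5:28538001-28540000. Over the region the median difference was -0.04, against -0.03 over all tiles, and it was below 0 in 40 of 60 tiles (58.8% of all tiles). eGFP was 1 sample and is assumed in the fit to vary like the constructs, whose spread includes any difference between them.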

How the data were processed

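Native H3K27me3 ChIP DNA (MNase, Millipore antibody) and input DNA were hybridised to a custom Agilent array on 2 slides, which are also the scan batches. The authors scanned each array at the Cy3 and Cy5 wavelengths and deposited spot intensity values, extracted wavelength by wavelength in the single-colour mode of Agilent Feature Extraction 11.5.1.1 with no normalization between the dyes. On the Cy3 scan of NPC R2 96.4% of processed signals lay within 1% of the background-subtracted ones, against 3.16% to 18.4% on the other Cy3 scans, so software adjustments differed between scans. The authors also deposited normalized log2 ratios with R1 and R2 combined. How they were normalized is not given in the sources used here beyond limma in the submitters' processing notes; column medians were -0.232 to -0.105. The study's paper describes other arrays.

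From the processed signals a log2 ratio was formed and its median over each array set to 0, with neither loess nor scaling. Control spots, and spots the software marked as non-uniform or as population outliers in either channel, were left out (328 to 3122 probes per array, 13 to 115 in the region). Probe coordinates are in mm9 and lay within the chromosomes of the NCBIM37 genome, from which sequences and GENCODE vM1 genes were taken. Means were taken over probes in windows, in 2 kb tiles (at least 3 probes on every array) and in 500 bp bins. In Cy3 58.2% to 94.7% of probes were well above background and in Cy5 76.3% to 89.6%, and 876 of 1323 probes of the region were so at both on all arrays without saturation. The number of arrays limits the precision.

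TALE-Vp64 and eGFP ESCs were compared with limma 3.58.1 (lmFit, eBayes, R 4.3.3), 2-sided, with Benjamini-Hochberg adjustment over 2289 tiles. Tested on simulated data for this comparison (2289 tiles), 84 of 100 tiles shifted by 1 and 21 of 100 shifted by 0.5 were recovered, with 3 false calls. Both sets were shifted upward in the same simulation, with independent normal noise and the tile SDs shuffled over tiles. The real populations also differed in slope and slide, so recovery in the real data may be lower. The region, lists and rules were chosen with earlier results of these data known. Named were both genes, the 3 highest and lowest tiles by ESC mean, NPC value and difference (adjoining tiles counted once), the 3 most similar promoters, Shh and members of a midbrain-hindbrain, a developmental and a marker list. The 500 bp bins, stretches of tiles and channel values were added after the data had been seen. Alternatives were loess and scale, normexp (offset 50, on median signals because no mean signal column is given), the deposited ratios, leaving out dim or saturated probes, other windows, tiles and thresholds, rescaling, slides, and leaving out arrays or populations.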

Additional observations from a re-analysis of the deposited data

Results flagged for a closer look

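In the 5′ part of the Cnpy1 body, between the internal starts and the promoter window, tSBE(6+2)-Vp64 had a log2 ratio of 0.27 and stood apart from the other ESC populations, which lay between 0.15 and 0.18. The gap was 0.731 of the range of the 5 populations, above Dixon's critical value of 0.71; 26 windows and tiles were checked and chance flags about 1 in 20. tSBE(6+2)-Vp64 was on slide 2 with NPCs and the other ESC populations on slide 1, so slide and construct cannot be told apart here.

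Promoter minus gene body at Cnpy1 was -1.25 in NPCs and lay between 0.03 and 0.27 in the ESC populations, so that all ESC arrays went one way and both NPC arrays the other. The ESC mean of 0.16 was 0.0026 without dim and saturated probes and 0.35 with 2500 bp promoters. The difference was not tested, because these values were known when the region was chosen.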

How the results depend on the processing

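NPC minus ESC at the 6 windows for which alternatives were run (promoter and body of both genes, the internal Cnpy1 promoters and the stretch upstream of En2) and promoter minus body of both genes kept their direction under those alternatives; other windows and single tiles were not recomputed. No tile was called for TALE-Vp64 against eGFP under any alternative, with 12 to 188 tiles of the array and 0 to 8 of the region at an unadjusted p of 0.05. With loess and scale, NPC minus ESC was 0.44 at the En2 promoter, 1.01 in the En2 body and 0.74 in the Cnpy1 body, promoter minus body in NPCs -1.31 (En2) and -0.98 (Cnpy1), and NPC blocks covered 38 kb. With normexp the Cnpy1 body differed by 0.86, promoter minus body was -0.66 in ESCs and -1.64 in NPCs at En2 and -1.08 in NPCs at Cnpy1, and NPC blocks covered 40 kb. In the deposited ratios the differences were 0.41, 1.16 and 0.57 (En2 promoter, En2 body, Cnpy1 body), promoter minus body -0.59 and -1.34 at En2 and -0.92 in NPCs at Cnpy1, and blocks covered 34 kb in NPCs and 14.4 kb in ESCs. Without dim and saturated probes the En2 body differed by 1.57 and the Cnpy1 body by 0.67, promoter minus body was -0.41 and -1.32 at En2 and 0.0026 and -0.97 at Cnpy1, and ESC blocks covered 12.4 kb. With 500 bp promoters the En2 value in NPCs was -1.66. With 2500 bp the En2 promoter differed by 1.11 and the Cnpy1 body by 1.07, and promoter minus body was -0.42 and -1.22 at En2 and 0.35 and -1.04 at Cnpy1. With medians over probes the Cnpy1 body differed by 0.66, and promoter minus body was -0.93 and -2.09 at En2 and -0.82 in NPCs at Cnpy1. After NPCs were rescaled the differences were 0.52, 1.20 and 0.80. Within slide 2 they were 1.56 (En2 body), -0.63 (Cnpy1 promoter) and 0.89 (Cnpy1 body). Blocks, 44 kb in NPCs and 21.6 kb as the ESC mean, covered 58 and 39.6 kb at a threshold of 0.5 and 36 and 9.2 kb at 1.5. The cause of these changes was not tested.

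With 1 array left out per condition, the differences were 0.71 to 0.88 at the En2 promoter and -0.52 to -0.30 at the Cnpy1 promoter. In the limma comparison, the 3 tiles of the region at an unadjusted p of 0.05 became 1 without R1, 5 without R2, 5 with normexp, 1 in 5 kb tiles, 7 without tSBE(6+2)-Vp64 (7.12% of all tiles) and 0 without any 1 of the other constructs. Arrays of different conditions with the same number (R1 or R2) were matched by that number alone. Their deviations correlated between conditions at -0.17 to 0.30. With arrays as samples, 8 tiles of the region (8.21% of all tiles) reached that p without a replicate block and 7 (7.21%) with the replicate block, and 0 were called in either. Division of the constructs by their slope was chosen after seeing the data. The lone eGFP sample and 4 constructs limit what could be called, as do probes not well above background.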
